A study of Sus scrofa with 35 samples.

Results

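The UBE2 genes encode the ubiquitin-conjugating (E2) enzymes. Members were the non-control probes of a porcine microarray whose gene name began with UBE2 in either letter case, with UBE2C left out. This rule, which used no measured value, found 54 probes of 28 gene symbols, among 60305 distinct probes and 45222 symbols on the array. Of these, 49 probes of 25 genes were in the table of log2 values deposited by the authors. In that table, 14 of the genes had 1 probe and 11 had more. One symbol, UBE2CBP, met the rule by its spelling, although its product is known as an E3 ligase (UBE3D) that binds E2 enzymes.

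Whole blood was taken from 35 castrated male growing pigs of 3 breeds, Creole (CR), Large White (LW) and the F1 cross of both, and each pig had its own array. Pigs had been kept at 24 °C in thermoneutral (TN) conditions or under heat stress (HS), which the sample labels give as 30 °C and the protocol text as 32 °C for 5 days. The groups held 6 pigs each, except CR TN with 5. The TN pigs were slaughtered before the temperature rose and the HS pigs after it, so climate and time of slaughter cannot be told apart, and the labels give no age, litter or pen.

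Ubiquitin is activated by an E1 enzyme, passed to an E2 enzyme, and joined to a target protein with the help of an E3 ligase, often as a chain whose linkage decides the fate of the target. A few E2 enzymes carry ubiquitin-like modifiers instead. In late red cell maturation the cell clears its organelles and most proteins other than hemoglobin. UBE2O and UBE2H are the E2 enzymes best known from that stage, UBE2H as the partner of the CTLH E3 complex (also called the GID or MAEA complex). Whole blood carries RNA of immature red cells together with that of platelets and all white cells. In such samples, fewer cells of a type and less RNA per cell cannot be told apart.

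The names of some probes had to be read with care, and the probes of the UBE2D family are shown for that reason. UBE2D2 and UBE2D3 are near-identical, broadly acting E2 enzymes. Of the 54 member probes, 9 carried an accession that is listed in the RefSeq gene table of assembly Sscrofa11.1, and 6 of these had the same symbol there. The other 3 were named UBE2D2 on the array while RefSeq assigns their accession to UBE2D3, the accession that a probe named UBE2D3 also carried. In the sequences below, written 5′ to 3′ as on the array, capitals mark runs of at least 20 bases that a probe shared with another of these 4.
UBE2D2 A_72_P531263: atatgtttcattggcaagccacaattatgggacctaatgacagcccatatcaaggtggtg
UBE2D2 A_72_P171486: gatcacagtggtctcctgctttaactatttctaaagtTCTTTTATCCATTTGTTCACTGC
UBE2D2 A_72_P440797: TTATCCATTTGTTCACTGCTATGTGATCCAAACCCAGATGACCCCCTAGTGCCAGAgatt
UBE2D3 A_72_P223194: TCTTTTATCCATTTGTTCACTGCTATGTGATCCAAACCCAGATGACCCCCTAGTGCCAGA

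A_72_P440797 and A_72_P223194 thus had 56 of 60 bases in common under different names. Over all member probes, 7 pairs shared a run of at least 20 bases. Both UBE2V1 probes were identical over 60 bases, and both UBE2T probes shared 58. In UBE2Q1, A_72_P175186 and A_72_P612078 shared 57 bases, and each shared 55 with the opposite strand of O13445. The first 30 bases of the shared run, and the same stretch on O13445, show the strands.
UBE2Q1 A_72_P175186: ttcctggacgtgatagctctgcctattgca
UBE2Q1 O13445: tgcaataggcagagctatcacgtccaggaa

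Outside the rule 4 probes shared such a run with a member, 1 with UBE2A, 2 with UBE2D1 and 1 with UBE2G1. The deposited files give no mapped position for the probes.

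The first comparison asked which UBE2 genes differed between HS and TN pigs over the 3 breeds, with breed in the model. UBE2H, UBE2D3, the UBE2D2 probes that cite the UBE2D3 accession, UBE2R2, UBE2B and UBE2F fell, with log2 changes of the called probes from -0.64 to -0.45. UBE2J1 and UBE2G2, which act in endoplasmic reticulum quality control, UBE2L3, UBE2Q1 and UBE2M rose, by 0.20 to 0.35. By limma with Benjamini-Hochberg adjustment over all 39072 probes, 20 of the 49 member probes passed an adjusted p of 0.05, which is 40.8%, beside 34.8% of all probes. Of the members 11 were higher in HS (22.4%, against 20.1% of all probes) and 9 lower (18.4%, against 14.7%). These shares lie near those of the whole array. The median log2 change was 0.03 over the members and 0.06 over all probes, and the sign was the same in the 3 breeds for 55.1% of members and 56.6% of all probes. By their names on the array, called probes came from 11 genes, 5 with probes that rose and 6 with probes that fell. No gene had called probes in both directions. The 6 include UBE2D2, whose fallen probes are those that cite the UBE2D3 accession.

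**Figure D1:**
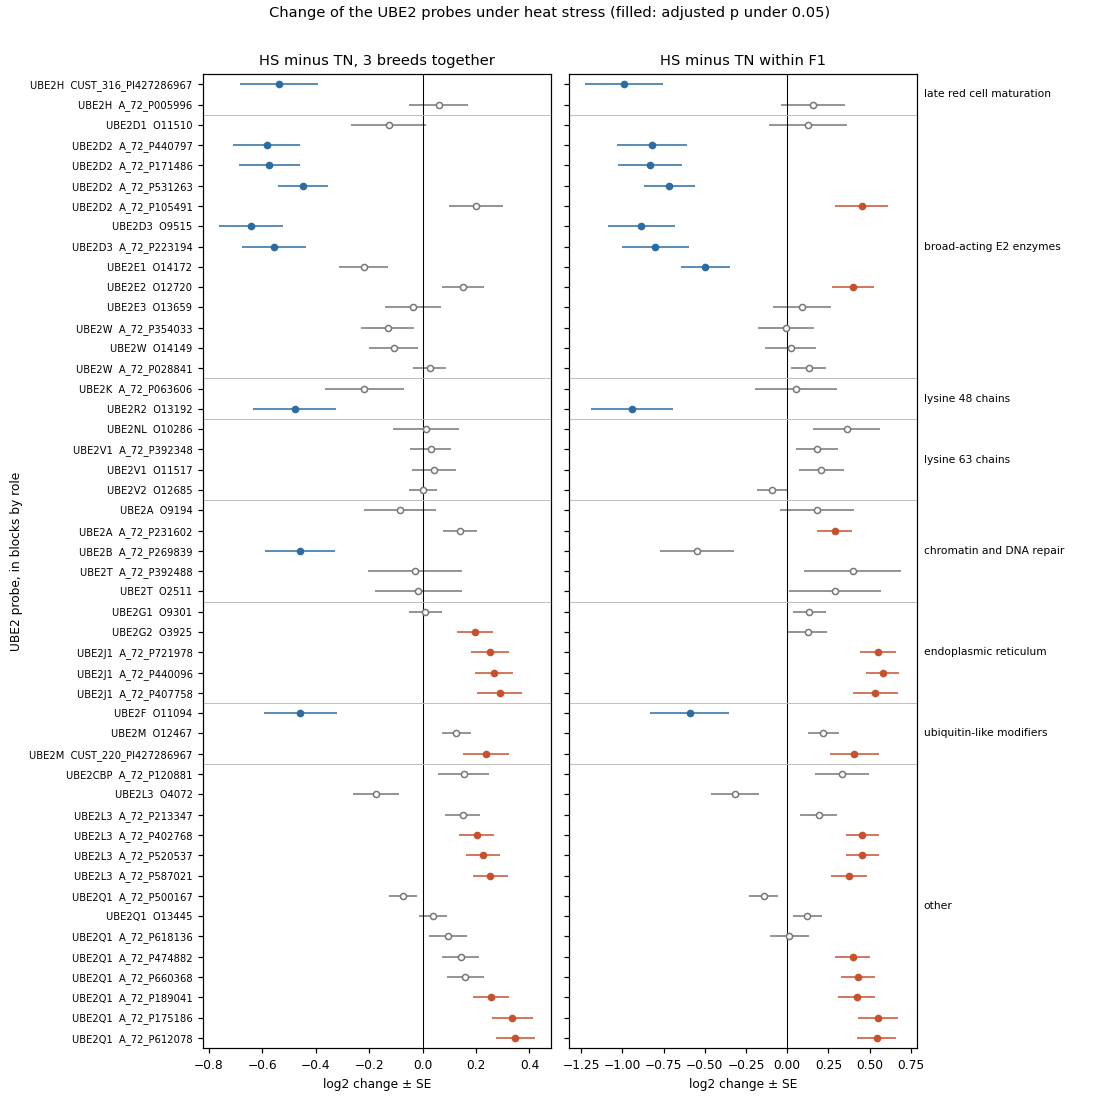
Log2 change between HS and TN pigs (x axis, ± SE) of 48 UBE2 probes (y axis), in blocks by role, over the 3 breeds together (left) and within F1 pigs (right), with an x axis of its own in each panel. Filled points passed an adjusted p of 0.05, orange for 11 higher and blue for 9 lower probes on the left, and for 15 and 9 on the right; the UBE2D2 and UBE2D3 probes that fell stand next to A_72_P105491, a UBE2D2 probe on the other side of 0.

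UBE2H, the E2 enzyme of the CTLH complex, was measured by a pair of probes with no common run longer than 6 bases. Their first 30 bases are given so that each can be identified.
UBE2H CUST_316_PI427286967: ggaagggattcagaaataggacgtagtaga
UBE2H A_72_P005996: caggaaaccaagacttctcttccagatggc

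With CUST_316_PI427286967, log2 levels of the CR TN pigs were 7.98, 8.29, 8.55, 9.01 and 9.44, and those of CR HS pigs ran from 7.65 over a median of 8.25 to 8.62. In F1 pigs the lowest, median and highest levels were 8.41, 8.86 and 10.12 in TN and 7.51, 8.13 and 8.23 in HS. In LW pigs they were 8.15, 8.47 and 9.08 in TN and 8.18, 8.32 and 8.73 in HS. All F1 HS pigs were thus below all F1 TN pigs, while the groups overlapped in CR and LW. Of 18 HS pigs, 17 were below the TN mean of their breed. The log2 change was -0.54 ± 0.15 (SE, n = 35; limma adjusted p = 0.00641) over the breeds and -0.99 ± 0.24 (adjusted p = 0.00209) within F1. The other UBE2H probe gave no such difference. Its group means were between 7.30 and 7.59 in the 6 groups, and its change was 0.06 ± 0.11 (adjusted p = 0.699). Both probes were well above background on all 35 arrays. Which of them follows the UBE2H transcript in pig blood was not tested, so the fall is that of 1 of 2 probes.

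No probe on the array carried the names UBE2O or UBE2L6. UBE2L6, the E2 enzyme of the interferon-induced modifier ISG15, is therefore not described here. A_72_P192692, which lies outside the rule since it carries a transcript cluster name, is described in the files as similar to UBE2O. It was chosen for that description and not for its values. Its mean log2 level was 9.79 ± 0.92 (SD) in F1 TN and 8.29 ± 0.88 in F1 HS pigs, 9.09 ± 1.11 in CR TN and 8.45 ± 0.69 in CR HS, and 9.28 ± 0.96 in LW TN and 9.20 ± 0.40 in LW HS. This probe fell by 0.75 ± 0.28 on the log2 scale over the breeds (limma adjusted p = 0.0379) and its change within F1 was -1.503 ± 0.46 (adjusted p = 0.0119).

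The broad-acting enzymes UBE2D, UBE2E and UBE2W, which work with many RING-type E3 ligases, had 13 probes of 7 genes. In HS pigs 5 of these probes fell, all named UBE2D2 or UBE2D3, and none rose, while of all probes 14.7% fell and 20.1% rose. UBE2D3 had log2 levels of 11.52, 11.63, 11.95, 11.98 and 12.05 in the CR TN pigs with A_72_P223194, against 10.86 to 12.12 (median 11.25) in CR HS. F1 pigs ran from 11.41 to 12.87 (median 11.995) in TN and from 10.90 to 11.55 (median 11.20) in HS, and LW pigs from 11.49 to 12.10 (median 11.77) in TN and from 11.06 to 11.997 (median 11.35) in HS. The groups of each breed overlapped, but 16 of 18 HS pigs were below the TN mean of their breed, and 12 were below every TN pig of it. The change was -0.56 ± 0.12 (limma adjusted p = 0.00182), and it was -0.64 ± 0.12 (adjusted p = 0.00159) with the other UBE2D3 probe, O9515. The 3 probes named UBE2D2 with the UBE2D3 accession gave -0.58, -0.57 and -0.45. Of them A_72_P440797 is also the brightest UBE2D2 probe, with a change of -0.58 ± 0.13 (adjusted p = 0.00171). The remaining UBE2D2 probe, A_72_P105491, moved the other way, with a change of 0.20 ± 0.10 (adjusted p = 0.114) over the breeds and of 0.45 ± 0.16 (adjusted p = 0.0270) within F1. Its F1 TN pigs lay between 9.14 and 9.88 and its F1 HS pigs between 9.58 and 10.31. So, with the RefSeq name for the shared accession, all 5 UBE2D3 probes fell and the UBE2D2 probe that is left did not. UBE2D1, UBE2E1, UBE2E2, UBE2E3 and UBE2W had changes from -0.22 to 0.15, none past the threshold, and within F1 UBE2E1 fell by 0.50 (adjusted p = 0.00935) and UBE2E2 rose by 0.40 (adjusted p = 0.0144).

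**Figure D2:**
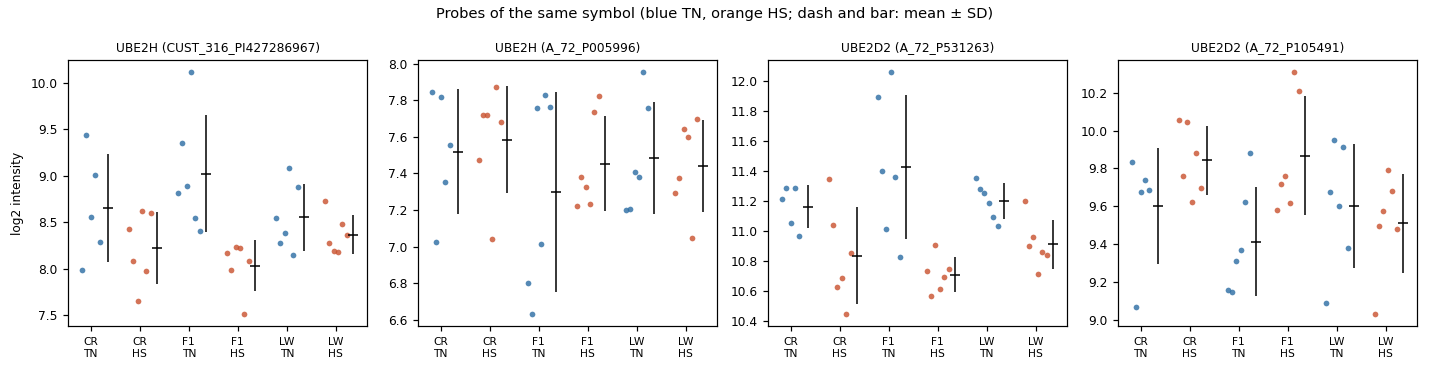
Log2 intensity (y axis) in each pig by breed and climate (x axis), for both UBE2H probes and for 2 UBE2D2 probes, A_72_P531263 with the UBE2D3 accession and A_72_P105491 without it. Points are pigs, dashes and bars mean ± SD; UBE2H is lower in all F1 HS pigs with the first probe only, and A_72_P105491 has its F1 HS pigs between 9.58 and 10.31 and its F1 TN pigs between 9.14 and 9.88.

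Among enzymes that build K48-linked chains, which mark proteins for the proteasome, UBE2R2, a partner of the cullin-RING ligases, fell. Its log2 levels were 10.52, 10.72, 10.90, 10.997 and 11.60 in CR TN pigs and 9.89 to 11.16 (median 10.69) in CR HS. In F1 pigs they were 10.71 to 12.11 (median 11.39) in TN and 9.72 to 10.83 (median 10.59) in HS, and in LW 10.56 to 11.44 (median 10.98) and 10.38 to 11.32 (median 10.84). In F1 5 of 6 HS pigs lay below every TN pig, against 2 in CR and 1 in LW, and the interaction of breed and climate had an adjusted p of 0.372 (limma). The change was -0.48 ± 0.15 (limma adjusted p = 0.0167) over the breeds and -0.94 ± 0.25 (adjusted p = 0.00447) within F1. UBE2K, which builds the same linkage, had a change of -0.22 (adjusted p = 0.246). The group tied to K63-linked chains, which serve in signalling and DNA repair, held UBE2NL, UBE2V1 and UBE2V2. Its 4 probes had changes from 0.00 to 0.04, none called. No member probe carried the name UBE2N.

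UBE2B, an E2 enzyme of histone ubiquitination and DNA repair, had log2 levels of 7.42 to 8.59 in CR TN pigs and 7.08 to 7.73 in CR HS. In F1 they were 7.04 to 9.02 in TN and 6.87 to 7.52 in HS, and in LW 7.27 to 7.75 and 6.81 to 7.67. The groups overlapped in each breed, and 17 of 18 HS pigs were below the TN mean of their breed. The change was -0.46 ± 0.13 (limma adjusted p = 0.00797). Within F1 UBE2B missed the threshold, with a change of -0.55 ± 0.22 (adjusted p = 0.0511). Its paralog UBE2A, with the same partner ligases, did not pass the threshold over the breeds with either probe (-0.08 and 0.14), and within F1 its probe A_72_P231602 rose by 0.29 (adjusted p = 0.0318). Nor did UBE2T pass over the breeds, the E2 enzyme of the Fanconi anemia pathway (-0.03 and -0.02 with its overlapping probes).

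UBE2F, an E2 enzyme for the ubiquitin-like modifier NEDD8, was 7.89 to 8.37 in LW TN pigs and 7.57 to 7.83 in LW HS, without overlap. In CR pigs it was 7.68 to 8.53 in TN and 7.42 to 8.27 in HS. In F1 it was 7.67 to 10.1005 in TN and 7.38 to 7.98 in HS, where a single TN pig held the highest value and the next was 8.21. The change was -0.46 ± 0.14 (limma adjusted p = 0.0111) over the breeds. Within F1 it was -0.59 (adjusted p = 0.0479), and -0.24 (adjusted p = 0.208) without that pig. UBE2M, the other E2 enzyme for NEDD8, had changes of 0.24 (adjusted p = 0.0338) and 0.13 (adjusted p = 0.0696) with its 2 probes.

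Of the enzymes of the endoplasmic reticulum, which tag misfolded proteins for degradation, 4 of 5 probes rose and none fell. Of the 4, 3 were probes of UBE2J1, and of all probes on the array 20.1% rose and 14.7% fell. UBE2J1, which is anchored in the reticulum membrane, had log2 levels of 10.51, 10.92, 10.97, 10.97 and 11.21 in CR TN pigs and 10.75 to 11.52 (median 10.96) in CR HS. F1 pigs had 10.34 to 10.93 (median 10.61) in TN and 10.74 to 11.60 (median 11.17) in HS, and LW pigs 10.82 to 11.02 (median 10.91) and 10.90 to 11.31 (median 11.07). HS pigs overlapped TN pigs in every breed, and 14 of 18 were above the TN mean of their breed. All 3 UBE2J1 probes rose, by 0.29 ± 0.08 (limma adjusted p = 0.00980), 0.27 and 0.25. In the same order, their changes were 0.54, 0.58 and 0.55 within F1, where all passed. They were 0.12, 0.02 and 0.06 in CR and 0.19, 0.19 and 0.13 in LW, where none passed. The interaction of breed and climate passed with none of these probes. UBE2G2, a dim probe with levels between 5.90 and 6.71, rose by 0.20 ± 0.07 (adjusted p = 0.0264). UBE2G1 had a change of 0.01 (adjusted p = 0.908).

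UBE2L3, which serves HECT and RBR ligases such as parkin, and UBE2Q1 were measured by several probes each. UBE2L3 was 10.53 to 10.95 in F1 TN pigs and 10.84 to 11.28 in F1 HS with its brightest probe, A_72_P587021, and the change over the breeds was 0.25 ± 0.07 (limma adjusted p = 0.00498). Of its 5 probes, 3 rose, and O4072 had a change of -0.17 (adjusted p = 0.112). UBE2Q1 was 12.93 to 13.59 in F1 TN pigs and 13.62 to 13.98 in F1 HS, without overlap, with A_72_P189041, and the change over the breeds was 0.26 ± 0.07 (adjusted p = 0.00526). Of its 8 probes with log2 values, 3 rose, 7 had changes above 0, and A_72_P500167 had -0.07. Of the probes on opposite strands, A_72_P175186 and A_72_P612078 rose by 0.34 and 0.35, whereas O13445, on the other strand, had a change of 0.04 (adjusted p = 0.571) and was well above background on 19 of 35 arrays only.

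**Figure D3:**
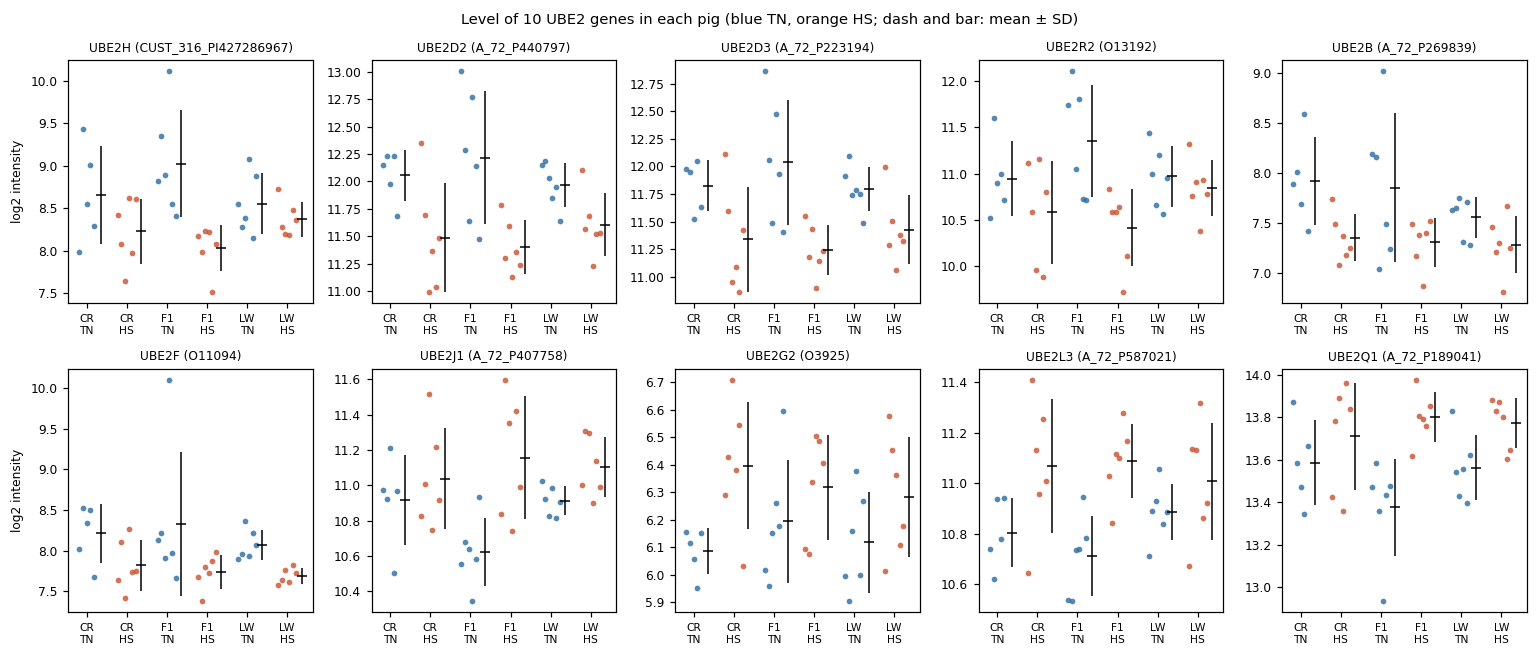
Log2 intensity (y axis, own range in each panel) of the 10 UBE2 genes named by rule, each with its brightest probe, in every pig by breed and climate (x axis). Points are pigs, dashes and bars mean ± SD; UBE2H and UBE2Q1 have no overlap of HS and TN in F1, and UBE2F none in LW.

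Identical or nearly identical probes showed how far a change could be repeated on the array. The 2 UBE2V1 probes gave 0.03 and 0.04, the 2 UBE2T probes -0.03 and -0.02, and the UBE2D2 and UBE2D3 probes with 56 common bases -0.58 and -0.56. The SE of each change measures the spread between pigs, which probes on the same arrays share, so it is no yardstick for these differences.

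The second comparison took the heat effect within each breed. Within F1 pigs 25 of 49 member probes passed (51.0%), beside 38.7% of all probes, with 16 higher in HS (32.7%, against 20.8% of all probes) and 9 lower (18.4%, against 17.9%). Of the 16, 5 were probes of UBE2Q1, 3 of UBE2J1 and 3 of UBE2L3, so the share counts a few genes repeatedly. With the mean of all probes of a gene, 52% of the member genes passed within F1, against 39.4% of all genes. By gene name on the array, 8 had a probe that rose and 6 a probe that fell. UBE2D2 was in both counts, its fallen probes being those that cite the UBE2D3 accession. In CR and in LW no member passed by limma, as for all probes (0% in CR and 0% in LW), while 8 members in CR (16.3%, against 8.87% of all probes) and 6 in LW (12.2%, against 8.71%) had an unadjusted p under 0.05. That does not show a difference between breeds. The breed by climate interaction, an F-test of 2 terms, was passed by no member (0% of all probes), with a smallest adjusted p of 0.278 among members and 7 members at an unadjusted p under 0.05 (14.3%, against 14.9% of all probes). HS and TN pigs did not overlap in 6 members in F1 (12.2%, against 11.7% of all probes), in 1 member in LW (2.04%, against 0.781%) and in none in CR (0.461% of all probes).

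The arrays of F1 TN pigs were also dimmer before normalization. The 75th percentile of the processed intensity was 112 to 186 in F1 TN and 172 to 266 in F1 HS, and 145 to 329 over the other groups, so that F1 TN and F1 HS overlapped only between 172 and 186. The share of probes well above background was 55.2% to 63.9% in F1 TN and 63.2% to 67.5% in F1 HS. The part of this in the F1 result was not tested.

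The third comparison was between breeds, with climate in the model. No member passed by limma in CR minus LW (1.08% of all probes did), F1 minus CR (0.184%) or F1 minus LW (0.0256%), and 4, 2 and 1 members had an unadjusted p under 0.05 (beside 3950, 1933 and 1751 of all 39072 probes). The smallest adjusted p among members was 0.315, 0.707 and 0.99978.

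Red cell markers moved with the UBE2 genes that fell. Of 27 genes listed for red cells, from globin and membrane proteins to transferrin receptor, 19 were measured with 39 probes, of which 33 were well above background on all arrays. Among those not in the table were RHAG and FECH, so these were not used here. In HS pigs 20 of the 39 probes fell and 1, a probe of the anion exchanger SLC4A1, rose (0.27, limma adjusted p = 0.0386). The median change was -0.59, against 0.06 over all probes, of which 14.7% fell and 20.1% rose. BNIP3L, which clears mitochondria from maturing red cells, fell by 1.07, and TFRC, the transferrin receptor, by 1.11. The mean log2 level over the 19 genes was 10.005 to 11.63 in F1 TN and 8.91 to 10.24 in F1 HS pigs, 9.71 to 10.85 in CR TN and 9.29 to 10.78 in CR HS, and 10.01 to 10.85 in LW TN and 9.69 to 10.50 in LW HS. In exact two-sided permutation tests the difference of the means was -0.90 in F1 (p = 0.0108), -0.40 in CR (p = 0.245) and -0.22 in LW (p = 0.201), and adjusted over 21 tests of 7 cell type lists none passed (0.121 in F1). The B cell and T cell marker means differed the other way in F1, with HS minus TN values of 0.46 (exact p = 0.0130) and 0.38 (exact p = 0.0173), with the same adjusted p of 0.121.

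Levels of the UBE2 genes were then set against this red cell marker mean over the 35 pigs, after the mean of each of the 6 groups had been removed, so that the climate difference itself played no part. In each group the marker mean was lower on the array that was brightest before normalization than on the dimmest. From dimmest to brightest it was 10.76 (75th percentile 146) to 9.71 (329) in CR TN and 10.78 (145) to 9.29 (289) in CR HS. In F1 TN it was 10.65 (112) to 10.61 (186), and in F1 HS 10.17 (172) to 9.71 (266). In LW TN it was 10.43 (167) to 10.01 (250), and in LW HS 10.26 (162) to 10.21 (246). The part of array brightness in the correlations was not tested. In a limma fit of the slope on the marker mean, adjusted over all probes, 12 member probes had a positive slope (24.5%, against 11% of all probes) and 12 a negative one (24.5%, against 17.3%). With 1 probe per gene, the brightest, 8 of 25 genes had a positive slope and 2 a negative one. In two-sided permutation tests of pigs within groups, with 1e+05 resamples, 12 of the 25 correlations had a p under 0.05. With that probe, all 6 genes that fell in HS had a positive slope, UBE2D2 and UBE2D3 standing for overlapping probes, and 2 of the 4 named genes that rose had a negative one. How many of all probes that fell in HS also had a positive slope was not counted, so these counts do not set the UBE2 genes apart. Other UBE2 probes of the same symbols went the opposite way. The second UBE2H probe, A_72_P005996, had the most negative slope of all members, -0.48 ± 0.11 log2 units per unit of the marker mean (limma adjusted p = 0.00210), against 0.67 ± 0.12 with CUST_316_PI427286967. The UBE2D2 probe without the UBE2D3 accession, A_72_P105491, had the next most negative slope, -0.34 ± 0.10 (adjusted p = 0.0101). UBE2H thus had 1 called probe on each side, and UBE2D2 had 3 with a positive and 1 with a negative slope.

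UBE2R2 had r = 0.76 and rho = 0.72 (permutation p = 1e-05 for both, the smallest possible here; limma adjusted p of the slope 3.42e-05). UBE2H with CUST_316_PI427286967 had r = 0.72 (permutation p = 1e-05) and rho = 0.64 (p = 0.00029), with an adjusted p of 0.000152. These were the highest correlations among the brightest probes of the 25 genes. Without the 2 pigs farthest from the median red cell mean, r was 0.73 for UBE2R2 and 0.64 for UBE2H. Within slides of 7 or 8 arrays r ran from -0.22 to 0.95 for UBE2R2 and from 0.07 to 0.91 for UBE2H, both lowest on slide 2. With 7 arrays, that slide alone cannot show whether the relation was absent there. Within LW pigs r was 0.67 and 0.24.

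The probe described as UBE2O had r = 0.73 and rho = 0.69 (permutation p = 1e-05 and 5e-05; adjusted 7.5e-05), 0.69 without the 2 farthest pigs, and -0.14 on slide 2. UBE2T, whose change in HS did not pass, was also correlated, with r = 0.62 and rho = 0.55 (permutation p = 0.0004 and 0.00229; adjusted 0.00235), 0.56 without the 2 farthest pigs and 0.62 to 0.68 within slides. UBE2D3 had r = 0.47 and rho = 0.54 (permutation p = 0.0171 and 0.0031; adjusted 0.0313), 0.44 without the 2 farthest pigs and 0.21 to 0.84 within slides.

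Among the brightest probes, the most negative correlations were those of UBE2Q1 with r = -0.55 and rho = -0.44 (permutation p = 0.00463 and 0.0175; adjusted 0.0157), and of UBE2J1 with r = -0.54 and rho = -0.48 (permutation p = 0.00421 and 0.0107; adjusted 0.0136). Without the 2 farthest pigs r was -0.53 and -0.48, and within slides it ran from -0.91 to -0.19 and from -0.96 to -0.04. Within LW pigs both had the opposite sign, 0.30 for UBE2Q1 and 0.46 for UBE2J1.

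**Figure D4:**
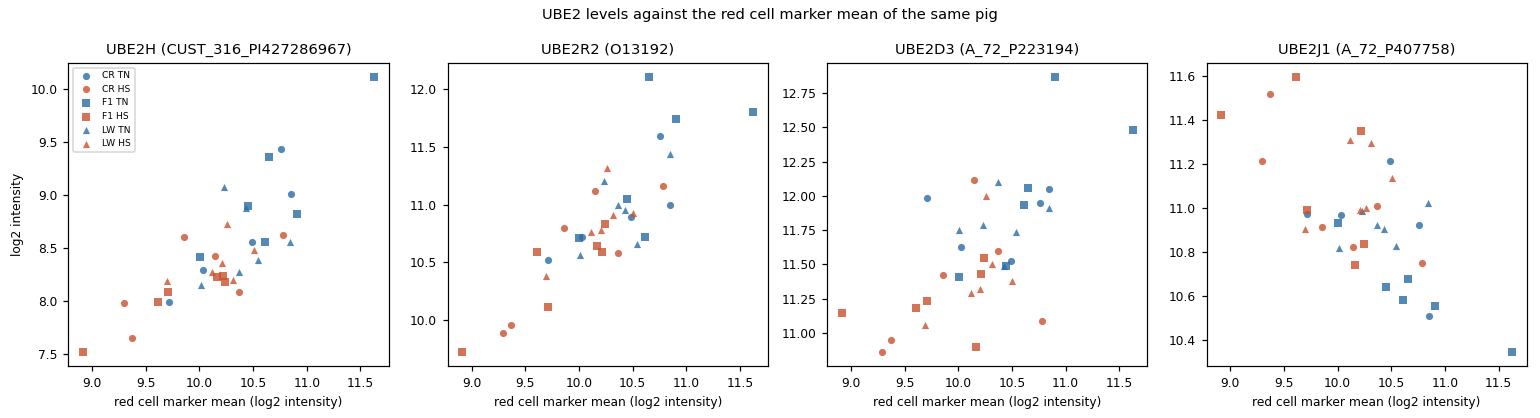
Log2 intensity (y axis) of UBE2H, UBE2R2, UBE2D3 and UBE2J1, each with its brightest probe, against the mean log2 level of 19 red cell marker genes (x axis) in each of 35 pigs, by breed (shape) and climate (colour). UBE2H with this probe and UBE2R2 rise with the marker mean, from an F1 HS pig at a marker mean of 8.91 to F1 TN pigs on the right, and UBE2J1 falls with it.

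With the red cell marker mean added to the model as a covariate, no member passed in HS minus TN by limma (10 had an unadjusted p under 0.05, which is 20.4%, against 19.5% of all probes), and 1 of all 39072 probes did. Within F1, 4 members passed (8.16%, against 4.99% of all probes), all higher in HS. Over the breeds UBE2R2 then had a change of -0.08 (adjusted p = 0.759), UBE2H with CUST_316_PI427286967 of -0.17 (adjusted p = 0.420) and UBE2D3 of -0.35 (adjusted p = 0.134), against -0.48, -0.54 and -0.56 without the covariate. Without the F1 pigs no member and no probe at all passed, with 12 members at an unadjusted p under 0.05 (24.5%, against 17.5% of all probes). The changes of the 10 named genes kept their sign there, which was fixed in advance because these genes were chosen for the same sign in each breed.

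Markers of white cells were counted in the same way. In HS pigs 11 of 31 T cell probes, 3 of 9 B cell probes and 4 of 26 monocyte probes rose and none fell, with median changes of 0.19, 0.28 and 0.09. Of all probes 20.1% rose and 14.7% fell, with a median of 0.06, and the monocyte median lay near the latter. Of 23 neutrophil probes 1 fell, of 12 NK and cytotoxic cell probes 2 fell, both of KLRK1, and of 10 platelet probes none passed. All 7 cell type lists had measured genes, and their part in the changes of UBE2 genes was not tested.

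Other genes of the ubiquitin pathway also went in both directions, as did all probes, of which 20.1% rose and 14.7% fell. Of 13 probes of ubiquitin genes and E1 enzymes 3 rose and 3 fell. UBA1, the main E1 enzyme, rose with 2 probes (0.28 and 0.27), while a ubiquitin gene, UBB, fell (-0.28). UBA3, a subunit of the NEDD8-activating enzyme, also fell (-0.28). Of 20 probes of E2 enzymes with other names 2 rose and 2 fell, and CDC34, the paralog of UBE2R2, rose by 0.26 (limma adjusted p = 0.0150). Of 21 probes of ubiquitin-like modifiers 3 rose and 1 fell.

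In the CTLH complex, the E3 ligase that works with UBE2H, 3 of 19 probes rose and 4 fell, with a median of -0.02. Of all probes 20.1% rose and 14.7% fell, with a median of 0.06. RMND5A, a RING subunit of the complex, fell by 1.09 (limma adjusted p = 0.00171) and YPEL5, another member, by 0.79 (adjusted p = 0.00166), while RMND5B, the paralog of RMND5A, rose with 2 probes (0.26 and 0.21). Of 24 probes of the ISG15 pathway 2 rose and 3 fell, with IFIT1 down by 0.98 and TRIM25, a ligase of that pathway, up by 0.46. Of 56 probes of RING and HECT ligases and cullin subunits 16 rose and 7 fell, with a median of 0.07. CUL4A, a cullin scaffold, fell by 0.64 and SKP1, an adaptor of cullin ligases, by 0.53, and CBL, a RING ligase of receptor signalling, rose by 0.37.

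Of the 5 member probes outside the log2 table, probes of UBE2Q1, UBE2QL1 and UBE2B were well above background on 0, 1 and 1 of 35 arrays. The UBE2Z probe was so on 18 and the UBE2Q2 probe on 33. UBE2Q2, UBE2QL1 and UBE2Z therefore have no value in the comparisons above.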

How the data were processed

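Total RNA of PAXgene whole blood was labelled with Cy3 and hybridised to a custom one-colour Agilent porcine array with probes of 60 bases, 1 array per pig, on 5 slides. Per the file headers and the submitters' processing notes, arrays were read with Feature Extraction 10.10.1.1. The authors deposited the raw median intensity and processed intensity of each spot, and a table of log2 values. For that table they had quantile-normalized the median intensities between arrays and kept expressed probes, by a rule not given in the sources used here. All results use this log2 table unless stated. Its values and those recomputed here from the scanner files differed by a median of 0.02.

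Groups came from the sample titles. Linear models were fitted with limma 3.58.1 in R 4.3.3 over all 39072 probes (breed plus climate, or 6 group means for effects within breeds and the interaction), with Benjamini-Hochberg adjustment at 0.05. The study's random effects (pen, slaughter, sire, dam) carry no labels and were left out. The code was tested on simulated data. Pigs were numbered in accession order, which pairs no animals. P-values measure the spread between pigs and treat pigs as independent, although by the study's design they shared pens, litters and slaughter series. With those effects in its model the study called far fewer probes in blood than were called here. For arrays no counting depth exists, and their number limits the precision.

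Members and gene lists were chosen with earlier results of these data known. Named genes were UBE2H, UBE2O and UBE2L6, and, with the brightest probe of each gene, up to 6 rises and 6 falls that passed with the same sign in the 3 breeds, which left 4 and 6. Others are given by counts, and those named besides were chosen after their values were seen. Alternatives were other background corrections and scalings, a filter on dim probes, slide as a block, array weights, gene means, a red cell covariate and leaving out F1 or single pigs. One member probe, included in the counts, is not reported here by name or drawn.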

Additional observations from a re-analysis of the deposited data

Results flagged for a closer look

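In 66 sets of 5 or 6 values, each from the pigs of a single group, 3 values lay far from the others of their set. Chance alone could give such a number, since about 1 in 20 sets is marked so by chance. The sets come from the same 35 pigs and are not independent. UBE2F was 10.1005 in F1 TN replicate 4, against 7.67 to 8.21 in the other F1 TN pigs. UBE2Q1 was 12.93 in the same pig, against 13.36 to 13.59. This pig also had the highest red cell marker mean of all pigs, 11.63. UBE2H was 7.51 in F1 HS replicate 5, against 7.99 to 8.23 in the other F1 HS pigs, and this pig had the lowest red cell marker mean, 8.91. Without the pig concerned, the change within F1 was -0.24 for UBE2F (limma adjusted p = 0.208), 0.34 for UBE2Q1 (adjusted p = 0.0195) and -0.88 for UBE2H (adjusted p = 0.00863). Over the 3 breeds it was -0.34, 0.22 and -0.49, with adjusted p of 0.00433, 0.00878 and 0.0123.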

How the results depend on the processing

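The count of called UBE2 probes in HS minus TN, 20 of 49, was 20 to 26 under other scalings, background corrections, the filter on dim probes, slide as a block and array weights, and 19 to 25 when each pig was left out in turn. With the mean of all probes of a gene it was 11 of 25 genes, since fewer features were tested. It was 0 with the red cell marker mean as a covariate and 0 without F1 pigs, and the cause was not tested. Within F1 the count of 25 was 22 to 27 under the first set and 20 to 27 when a pig was left out, 13 with gene means and 4 with the covariate (8.16%, against 4.99% of all probes). With array weights 2 members passed within LW (4.08%, against 2.84% of all probes) and 3 in CR minus LW (6.12%, against 3.90% of all probes), where none had passed without them. All other counts within CR, within LW, in the interaction and between breeds stayed at 0, also when a pig was left out (0 to 0). The 10 named changes kept their direction under all alternatives run, which without F1 pigs was fixed by how their genes were chosen. They passed in 69 cases, and of the 21 that missed the threshold 20 were with the covariate or without F1, and the other was UBE2G2 with 75th percentile scaling (0.27). Leaving out a pig cost none of them the threshold over the breeds. Within F1, UBE2F passed in 10 of the 35 fits without a single pig, with changes from -0.72 to -0.24. UBE2B, which missed the threshold within F1 with all pigs, passed in 8 of these fits, with changes from -0.71 to -0.32. The HS minus TN difference had the sign of the fit in 49 of 50 values taken within single slides, the exception being UBE2F (0.09). The slides divide the same arrays on which these genes were chosen, so this agreement was largely built in and is no separate support. The scaling moved the median of all probes from 0.06 to 0.08 in HS minus TN and from 0.13 to 0.18 within F1. Of the correlations with the red cell marker mean, that of UBE2D3 was 0.42 with 75th percentile scaling and then missed the threshold, and the other named genes stayed on their side of it. The fit of the slope over all probes was chosen after seeing the data. No paired analysis was possible because replicate numbers were given in accession order only and pair no pigs.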
